A study of Mus musculus with 6 samples.

Results

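The large subunit (60S) of the cytosolic ribosome carries the peptidyl transferase centre, the tunnel through which the growing protein leaves, and the stalks that bind translation factors and tRNA. Its proteins are named Rpl in mice, and their genes were taken here by symbol: Rplp0 to Rplp2, and Rpl followed by a number with or without a closing a or l. The rule found 49 of the 24255 genes in the table. Growing oocytes store ribosomes and mRNAs for meiosis and early development, and messages for ribosomal proteins are known for a pyrimidine tract at their 5′ end through which their translation is regulated together. LSM14B, the protein removed in the mutant, belongs to the LSM14 family of RNA-binding proteins, which act on the translation and storage of mRNAs.

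Gene expression was measured by RNA-Seq in 3 WT and 3 Lsm14b-KO libraries, each made from 20 GV-stage fully-grown oocytes (FGOs), that is, oocytes arrested before meiotic resumption. Lsm14b-KO females were homozygous for Lsm14b tm1a(KOMP)Mbp, a knockout-first, reporter-tagged insertion carried in every cell, and the colony was kept on C57BL/6J. All mice, WT included, had been given 5 IU of PMSG, a gonadotropin that drives follicle growth, 46 h before collection. Their age was not given in the sources used here, nor whether libraries of a group came from different animals, so that p-values measure only the spread between these libraries. The values are FPKM, sequenced fragments divided by transcript length and library size. Transcript length is thus allowed for between genes, but genes with near-identical copies, described further on, may share reads with them. The amount of RNA per oocyte cannot be read from FPKM.

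Lsm14b itself was at 2.77, 3.98 and 1.72 FPKM in WT and at 0, 0 and 0.102 FPKM in Lsm14b-KO. The groups did not overlap, with a log2 fold change of -1.85 (limma adjusted p = 0.0038, SE 0.25); the exact permutation test gave p = 0.1, the smallest it can give with 3 against 3. All 14 oocyte markers were present, 5 of 13 cumulus and granulosa markers (Amh, Foxl2, Inhba, Cyp11a1 and Ptx3) were at 0 in every library, and 7 of 7 red blood cell markers were at 0. The summed cumulus and granulosa markers stood between 9.35 and 13.5 FPKM in WT and between 5.59 and 9.61 FPKM in Lsm14b-KO, against 31300 FPKM or more for the oocyte markers. The Lsm14b-KO libraries were not alike. The summed FPKM of all genes was 1141324 to 1244182 in WT and 1029728 in Lsm14b-KO replicate 1, but 564671 and 676656 in replicates 2 and 3. Read depth relative to WT replicate 1 was estimated from the commonest ratio of very low values between the libraries. It was 1.14 and 1.03 in the other WT libraries and 1.33, 1.95 and 2.17 in the Lsm14b-KO libraries. The commonest ratio held for 476 of 1557 genes in WT replicate 2, but for 311 of 1495 and 279 of 1626 in Lsm14b-KO replicates 2 and 3. Calls of the genes described that change without Lsm14b-KO replicate 1 are given below.

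RefSeq (GRCm38.p6) places a start for 37 of the 49 genes. A run of at least 7 letters that are all C or T, reading the transcript strand and reaching within 5 bases of the start, was found in 18 of these 37 genes, against 16.36% of all genes in the same table. The windows below hold 30 bases before the start and 20 from it, and the longest run that reaches within 5 bases of the start is in capitals. Shown are 4 of the genes that fell and carry such a run (Rpl14, Rpl18, Rpl34 and Rpl35a), 2 that fell and do not (Rpl24 and Rpl37), and Rpl4 and Rplp0, whose levels were higher in Lsm14b-KO replicates 2 and 3. For Rpl34 and Rpl35a, which have several starts, the one with the longest run is shown.
Rpl14: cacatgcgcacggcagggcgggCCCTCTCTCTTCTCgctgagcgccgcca
Rpl18: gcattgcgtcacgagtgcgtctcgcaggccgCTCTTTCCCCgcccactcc
Rpl34: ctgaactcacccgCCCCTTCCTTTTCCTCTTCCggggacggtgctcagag
Rpl35a: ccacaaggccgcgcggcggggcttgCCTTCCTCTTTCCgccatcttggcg
Rpl24: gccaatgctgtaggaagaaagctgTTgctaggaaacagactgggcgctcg
Rpl37: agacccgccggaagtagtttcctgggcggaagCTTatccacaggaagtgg
Rpl4: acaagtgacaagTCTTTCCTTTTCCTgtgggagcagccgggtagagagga
Rplp0: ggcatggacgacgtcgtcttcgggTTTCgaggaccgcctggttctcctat
They lie at chr9:120571487-120571536 (Rpl14, plus strand), chr7:45718041-45718090 (Rpl18, plus), chr3:130730318-130730367 (Rpl34, minus) and chr16:33056452-33056501 (Rpl35a, plus). The others lie at chr16:55966245-55966294 (Rpl24, plus), chr15:5116583-5116632 (Rpl37, plus), chr9:64173357-64173406 (Rpl4, plus) and chr5:115559437-115559486 (Rplp0, plus). Genes without a start in the table include Rpl3, Rpl7, Rpl8, Rpl17, Rpl21, Rpl23a, Rpl29, Rpl30, Rpl32, Rpl36 and Rplp1. Of the 16 tested genes with it 4 fell, with a median log2 fold change of -0.59, and of the 16 without it 3 fell, with a median of -0.23. No difference between them was tested. A match describes letters only and is not shown to be a regulatory site.

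In WT oocytes the large-subunit messages were listed at very unequal levels. Rpl41, a very short basic protein, was at 5680, 5547 and 5426 FPKM, Rpl39, a small protein of the exit tunnel, at 3855, 3190 and 2793 FPKM, and Rpl32 at 2214, 2067 and 1898 FPKM. Each of these 3 genes was higher in all WT libraries than the gene below it, and together they made up 79.4 to 84.8% of the large-subunit FPKM in the 6 libraries. Rpl39l, a paralog of Rpl39 known from the male germ line, followed at 893, 935 and 870 FPKM, and Rpl14 at 459, 427 and 376 FPKM. Below them, Rpl29 and Rplp1, and Rpl27 and Rpl35a were neighbours in level whose WT libraries overlapped. In all, 3 genes had a WT mean of 1000 FPKM or more, 6 of 100 to under 1000, 17 of 10 to under 100, 17 of 1 to under 10 and 3 above 0 but under 1. Rpl12, Rpl9 and Rpl3l were listed at 0 in every library. The part of near-identical copies, described further on, in these differences of level was not tested.

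**Figure D1:**
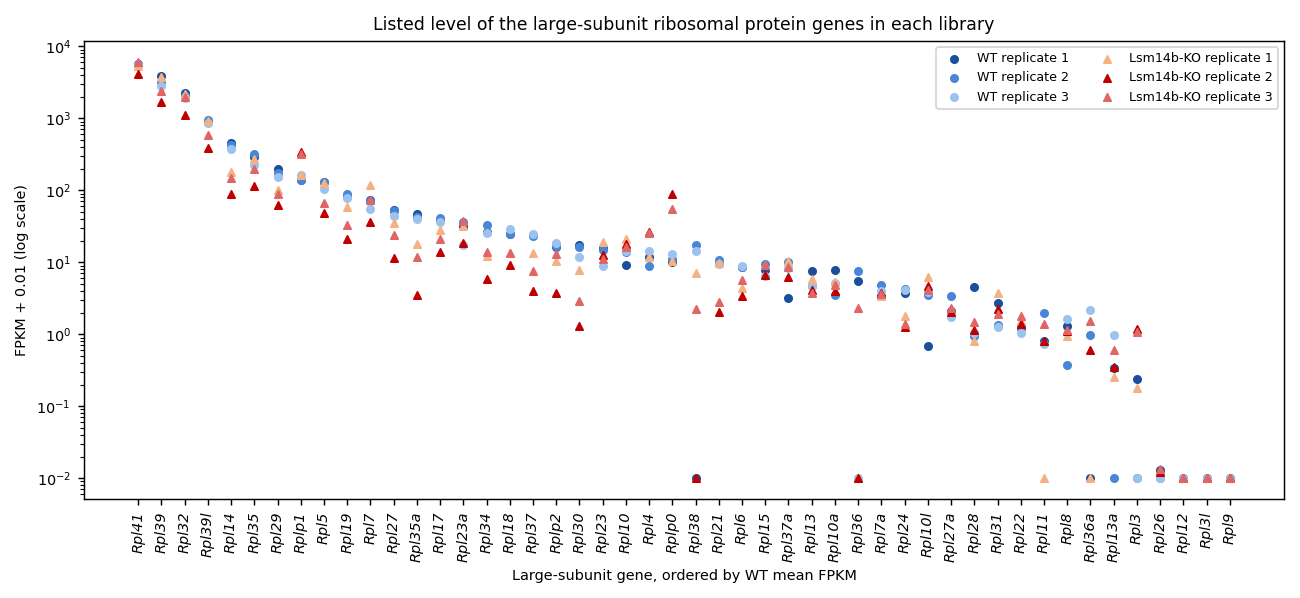
FPKM plus 0.01 on a log axis for 48 of the 49 large-subunit genes in the 6 libraries, ordered by WT mean (circles, WT; triangles, Lsm14b-KO). Rpl41, Rpl39 and Rpl32 stand above 1000 FPKM in every library, and points at 0.01 are values listed at 0.

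The comparison of Lsm14b-KO with WT asked which of these messages changed when LSM14B was missing. Of the 44 genes that reached 1 FPKM in any library, 9 fell and 0 rose (limma on log2(FPKM + 1), adjusted p under 0.05 over 6398 tested genes). At an unadjusted p under 0.05 there were 14 lower and 2 higher. The 9 genes are 20.5% of those tested, against 21.6% of all tested genes called in either direction, 15.2% called lower and 6.38% called higher, so the share of calls in either direction was near that of all genes. Fold changes on the log2(FPKM + 1) scale were negative for 30 genes and positive for 14, with a median of -0.38 against -0.08 over all tested genes. The libraries of the 2 groups did not overlap for 13 genes lower in Lsm14b-KO (29.5%, against 26.0% of all tested genes) and for 3 genes higher (6.82%, against 19.1%). With the FPKM sum set equal in all libraries, the median of all tested genes moves up by 0.48 on the log2 scale, the large-subunit median becomes 0.11, and 3 genes fell and 1 rose, while 7.6% of all tested genes were then called lower and 13% higher. The 3 were Rpl14, Rpl30 and Rpl35a, the gene that rose was Rpl10, and the other 6 of the 9 did not pass. Relative to all tested genes the large-subunit median was -0.30 as deposited, -0.29 under that scaling and -0.15 with quantile normalization. It turned to 0.19 with the length and GC correction described further on.

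Rpl35a, Rpl30 and Rpl14 had the greatest falls. Rpl35a (chromosome 16, 33056453 to 33060189, mm10) was at 46.4, 42.4 and 40.2 FPKM in WT and at 18, 3.54 and 11.9 FPKM in Lsm14b-KO. All Lsm14b-KO libraries were below all WT libraries, which gave a log2 fold change of -2.08 (adjusted p = 0.0249, SE 0.50). Rpl30 (chromosome 15, 34440505 to 34443640), which lies near the interface with the small subunit, was at 17.6, 16.3 and 11.7 FPKM against 7.84, 1.28 and 2.93 FPKM. Its libraries did not overlap either, and its log2 fold change was -1.90 (adjusted p = 0.0270, SE 0.46). Rpl14 (chromosome 9, 120571444 to 120574654) was the most abundant gene that fell. It was at 459, 427 and 376 FPKM against 178, 87.7 and 149 FPKM, with a log2 fold change of -1.65 (adjusted p = 0.0163, SE 0.35). In all of them Lsm14b-KO replicate 2 was the lowest library and replicate 1 the highest of the mutants.

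Rpl37 and Rpl34 came next by size, and Rpl24 had a smaller fall. Rpl37 (chromosome 15, 5116645 to 5119140), a small zinc-binding protein, was at 24.2, 23.4 and 24.7 FPKM against 13.5, 3.91 and 7.63 FPKM. The WT libraries lay close together and all mutants below them, with a log2 fold change of -1.56 (adjusted p = 0.0277, SE 0.39). Rpl34 (chromosome 3, 130726831 to 130730398) was at 26.3, 32.6 and 25.3 FPKM against 12.4, 5.81 and 13.8 FPKM. Here replicate 3 was the highest mutant, and the log2 fold change was -1.39 (adjusted p = 0.0278, SE 0.34). Rpl24 (chromosome 16, 55966275 to 55971435), which joins the 60S subunit late in the cytoplasm and forms a bridge to the small subunit, was at 3.72, 4.23 and 4.08 FPKM against 1.81, 1.27 and 1.37 FPKM. It had the lowest adjusted p of the family, 0.0112, with a log2 fold change of -1.02 (SE 0.19). With the length and GC correction described further on it was -0.25 (adjusted p = 0.433).

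The other genes that passed were Rpl18, Rpl29 and Rpl6. Rpl18 (chromosome 7, 45715457 to 45720836) was at 24.8, 24.3 and 28.6 FPKM against 13.6, 9.18 and 13.5 FPKM, with a log2 fold change of -1.06 (adjusted p = 0.0274, SE 0.26). Rpl29 (chromosome 9, 106429454 to 106431568) was at 196, 171 and 151 FPKM against 102, 62.7 and 87.7 FPKM, with a log2 fold change of -1.05 (adjusted p = 0.0455, SE 0.31). Rpl6 (chromosome 5, 121204481 to 121209241) was at 8.48, 8.48 and 8.89 FPKM against 4.40, 3.43 and 5.61 FPKM, with a log2 fold change of -0.83 (adjusted p = 0.0385, SE 0.23). No mutant library reached the WT range in any of the 3 genes. Just outside the threshold were Rpl19 (adjusted p = 0.0550), Rpl17 (0.0741) and Rpl27 (0.0750), all with groups that did not overlap. With 1 library left out of each fit, Rpl24 passed in 4 of 6 fits, Rpl14, Rpl18, Rpl30, Rpl34, Rpl35a and Rpl37 in 2, and Rpl6 and Rpl29 in 1.

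The 3 mutant libraries differed more in these genes than the WT libraries did. The median SD of log2(FPKM + 1) over the 44 genes was 0.19 in WT and 0.53 in Lsm14b-KO, against 0.21 and 0.37 over all tested genes. The median deviation from the WT mean was -0.04 in Lsm14b-KO replicate 1, -0.87 in replicate 2 and -0.20 in replicate 3, while the same value over all tested genes was -0.04, -0.14 and -0.07. Replicate 2 was the lowest library for 13 of 13 genes whose groups did not overlap on the lower side. Below the WT range were 16, 23 and 20 of the 44 genes in replicates 1 to 3, and above it 7, 7 and 10. Below the range these are 36.4, 52.3 and 45.5% of the genes, against 37.3, 44.5 and 41.3% of all tested genes. Above the range they are 15.9, 15.9 and 22.7% of the genes, against 33.1, 37.2 and 36.1% of all tested genes. The low library, replicate 2, had the second highest estimated depth and the lowest FPKM sum, and the part of either in the falls was not tested.

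**Figure D2:**
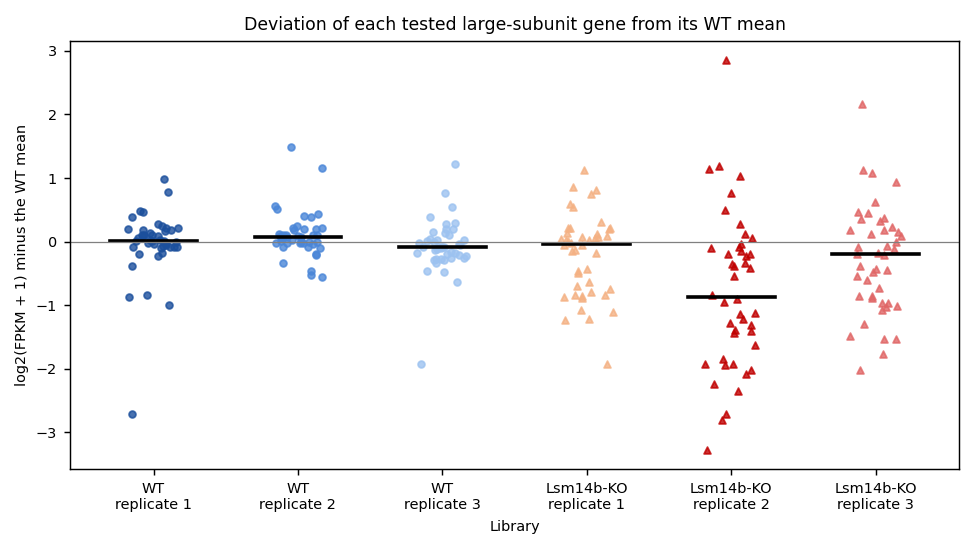
Difference of log2(FPKM + 1) from the WT mean for each of the 44 tested large-subunit genes in each library (points, unnamed), with the library's median as a bar. The bars stand at -0.04, -0.87 and -0.20 in Lsm14b-KO replicates 1 to 3, and Rplp0 is the highest point in replicates 2 and 3.

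Without Lsm14b-KO replicate 1, 19 genes fell and 4 rose, while the share of all tested genes called was 47.0% (28.7% lower and 18.3% higher). The 9 genes above were all among the 19. The 4 that rose were Rplp0, Rplp1, Rpl4 and Rpl3, none of which passed with all libraries. For these 4 genes replicate 1 was the only mutant library within the WT range. Leaving it out raises their fitted change by that choice alone, so these calls are no separate support for a rise. Each of the 4 passed in only 1 of the 6 fits with 1 library left out. Without WT replicate 2 or without Lsm14b-KO replicate 3 no large-subunit gene passed, and the share of all tested genes called was then 6.78% and 5.06%. Without WT replicate 1 only Rpl24 passed, without WT replicate 3 Rpl24 and Rpl36, and without Lsm14b-KO replicate 2 the 7 genes Rpl14, Rpl18, Rpl24, Rpl30, Rpl34, Rpl35a and Rpl37. Of all tested genes 6.5, 8.55 and 14.8% were called in these fits.

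**Figure D3:**
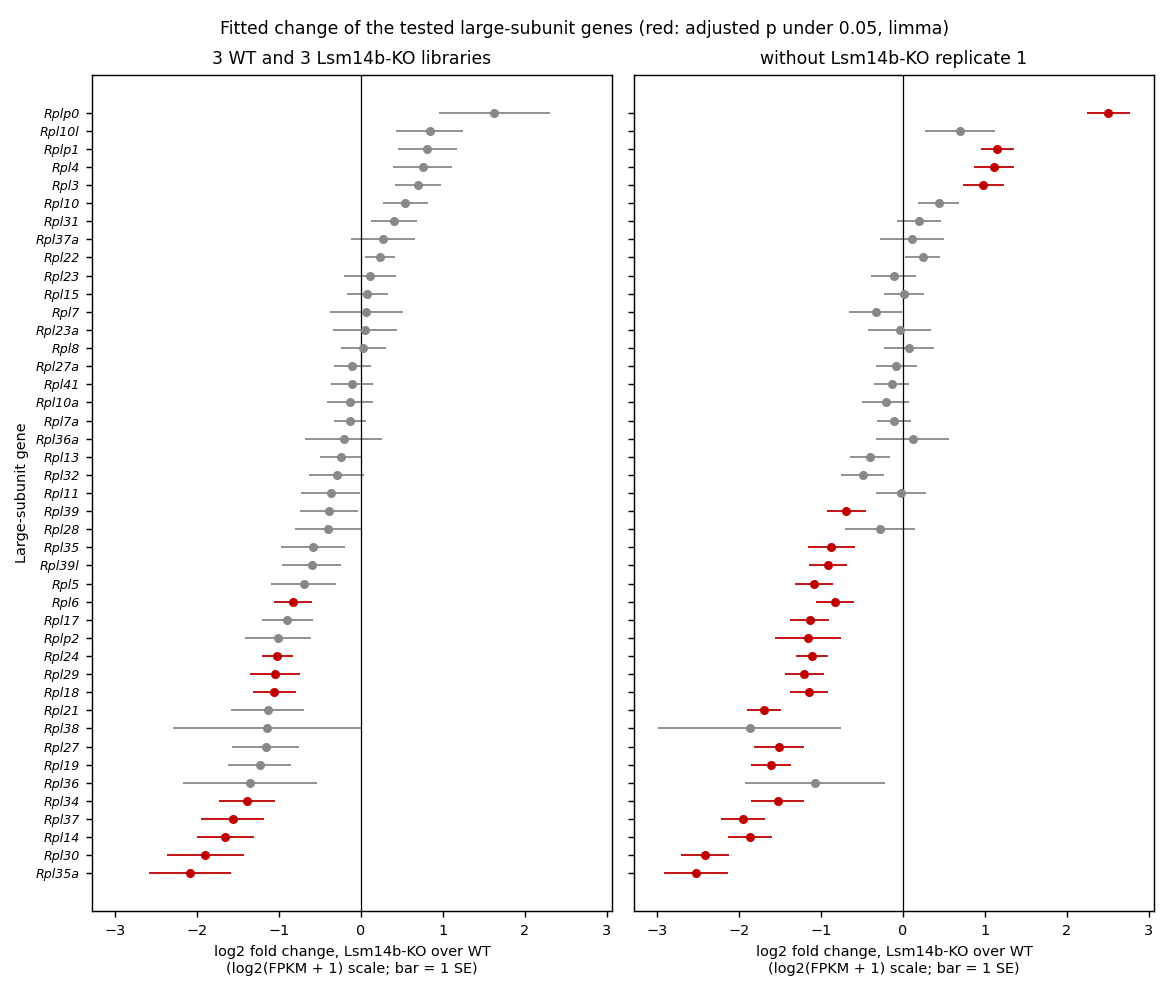
Fitted log2 fold change (Lsm14b-KO over WT, log2(FPKM + 1) scale) with 1 SE for 43 of the 44 tested genes, with all libraries (left) and without Lsm14b-KO replicate 1 (right); red marks an adjusted p under 0.05. On the left 9 genes are red and all are lower, and on the right 18 of those drawn are lower and 4 higher.

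The P stalk, a lateral arm that recruits and activates the translation factors with GTPase activity, consists of Rplp0, which anchors it, dimers of Rplp1 and Rplp2, and Rpl12 at its base. Its genes did not move together. Rplp0 (chromosome 5, 115559467 to 115563727) was at 9.94, 11.3 and 13.1 FPKM in WT and at 10.3, 88.4 and 54.2 FPKM in Lsm14b-KO. Replicate 1 lay inside the WT range and the other mutants far above it, and the log2 fold change of 1.63 (SE 0.68) was the highest of the family (adjusted p = 0.116). Without replicate 1 it was 2.51 (adjusted p = 0.000189, SE 0.26). Rplp1 (chromosome 9, 61913284 to 61914542) was at 140, 140 and 164 FPKM against 161, 336 and 323 FPKM, with a log2 fold change of 0.81 (adjusted p = 0.134, SE 0.36) and without replicate 1 of 1.15 (adjusted p = 0.00227, SE 0.21). Rplp2 went the other way, from 16.3, 17.0 and 18.7 FPKM to 10.3, 3.77 and 13.1 FPKM, below WT in every mutant, with a log2 fold change of -1.01 (adjusted p = 0.105, SE 0.40) and without replicate 1 of -1.16 (adjusted p = 0.0416, SE 0.40). Rpl12 was listed at 0 in all 6 libraries.

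Rpl4, whose long extension lines the exit tunnel, had the same order of the mutant libraries as Rplp0 and Rplp1. It was at 12.0, 8.92 and 14.3 FPKM in WT and at 11.9, 26.6 and 25.5 FPKM in Lsm14b-KO, so that replicates 2 and 3 were above every WT library and replicate 1 was not. Its log2 fold change was 0.75 (adjusted p = 0.155, SE 0.36), and 1.11 (adjusted p = 0.00588, SE 0.24) without replicate 1. Rpl3, which reaches towards the peptidyl transferase centre, was at 0.230, 0 and 0 FPKM in WT and at 0.172, 1.18 and 1.05 FPKM in Lsm14b-KO, with a log2 fold change of 0.70 (adjusted p = 0.108, SE 0.28). These levels are low in every library, and the zeros of a gene that every cell uses may be failed estimates. The 3 genes whose mutants were all above all WT libraries were others: Rpl10, Rpl10l and Rpl22. None of them passed the test on the deposited scale. Rpl10 passed with equal FPKM sums (log2 fold change 1.19, adjusted p = 0.0324). With the length and GC correction described further on, Rpl10 (adjusted p = 0.0207) and Rpl10l (adjusted p = 0.0463) passed. Rpl10 and Rpl22 passed with library quality weights, a fit that called 68.5% of all tested genes.

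The remaining genes of the exit tunnel and the exit site, where the nascent chain meets chaperones and targeting factors, showed no shared direction. Of 9 genes on this list, Rpl4 included, 8 were tested and 0 passed, with 4 positive and 4 negative fold changes. Rpl19 was at 80.7, 89.0 and 77.7 FPKM in WT and at 58.2, 21.0 and 33.0 FPKM in Lsm14b-KO, and Rpl17 at 38.5, 40.8 and 36.0 FPKM against 28.3, 13.8 and 20.8 FPKM. Both were lower in every mutant than in any WT library, and both passed without Lsm14b-KO replicate 1. Rpl35 was at 294, 317 and 224 FPKM against 276, 113 and 198 FPKM, and Rpl39 at 3855, 3190 and 2793 FPKM against 3779, 1678 and 2417 FPKM. Replicate 1 lay within the WT range for both, and the adjusted p was 0.284 and 0.421. Without replicate 1 both passed, with log2 fold changes of -0.87 (adjusted p = 0.0349) and -0.69 (adjusted p = 0.0400). Rpl23a, a docking site for the signal recognition particle, was at 31.8, 36.4 and 17.2 FPKM against 31.6, 18.5 and 37.7 FPKM and overlapped, with a log2 fold change of 0.05 (SE 0.39). Rpl22 was at 1.20, 1.29 and 1.04 FPKM against 1.51, 1.37 and 1.78 FPKM, higher in all mutants by 0.23 (SE 0.18) on the log2 scale (adjusted p = 0.361). Rpl31 was at 2.71, 1.31 and 1.24 FPKM against 3.71, 2.24 and 1.91 FPKM (adjusted p = 0.307).

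Rpl5 and Rpl11 bind the 5S rRNA, and together with it they also restrain Mdm2 when ribosome assembly fails. Rpl5 was at 129, 131 and 104 FPKM in WT and at 128, 48.1 and 66.2 FPKM in Lsm14b-KO, where replicate 1 was at the WT level and the others at lower levels (log2 fold change -0.70, adjusted p = 0.218, SE 0.39). Without replicate 1 it was -1.08 (adjusted p = 0.00601, SE 0.24). Rpl11 was at 0.784, 1.99 and 0.731 FPKM against 0, 0.800 and 1.37 FPKM, a level too low and too scattered to order the groups (adjusted p = 0.455). Rpl10a, the protein of the L1 stalk that guides tRNA out of the ribosome, was at 7.68, 3.50 and 5.15 FPKM against 5.32, 3.93 and 4.86 FPKM. All its mutants lay within the WT range, with a log2 fold change of -0.13 (adjusted p = 0.737, SE 0.28).

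Rpl10, which joins the subunit last and completes the P site, moved the other way from Rpl24, the other late-joining protein. It was at 9.14, 14.1 and 14.1 FPKM in WT and at 21.2, 17.7 and 16.1 FPKM in Lsm14b-KO, where replicate 1 was the highest library. Its log2 fold change was 0.54 (adjusted p = 0.171, SE 0.27). Rpl10l, a retrogene of Rpl10 used in the male germ line, had the same order of mutants at lower levels, with 0.675, 3.50 and 3.87 FPKM against 6.25, 4.67 and 4.12 FPKM. Its log2 fold change was 0.84 (adjusted p = 0.161, SE 0.41). Rpl39l was at 893, 935 and 870 FPKM against 911, 384 and 592 FPKM, with replicate 1 at the WT level (log2 fold change -0.60, adjusted p = 0.242, SE 0.36). Without replicate 1 it was -0.91 (adjusted p = 0.0127, SE 0.23). Rpl3l, a paralog of Rpl3 known from striated muscle, was at 0 throughout.

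Within the symbol rule, the 3 most abundant messages, Rpl41, Rpl39 and Rpl32, did not pass the test with all libraries. Rpl14, also among the most abundant, did pass, as described above. Rpl41 was at 5680, 5547 and 5426 FPKM in WT and at 5371, 4166 and 6135 FPKM in Lsm14b-KO, with a log2 fold change of -0.11 (adjusted p = 0.772, SE 0.26). Rpl32 was at 2214, 2067 and 1898 FPKM against 2191, 1099 and 1954 FPKM (log2 fold change -0.29, adjusted p = 0.519, SE 0.33). Lsm14b-KO replicate 2 was the lowest library for both; replicate 3 was the highest for Rpl41, and replicates 1 and 3 lay within the WT range for Rpl32. Because these genes dominate the sum, the summed large-subunit FPKM was 14490, 13600 and 12600 in WT and 13670, 8323 and 12400 in Lsm14b-KO, a log2 ratio of means of -0.24. As a share of all FPKM the order turned: it was 1.17, 1.16 and 1.10% in WT and 1.33, 1.47 and 1.83% in Lsm14b-KO, higher in every mutant, with a log2 ratio of 0.43. Without Rpl41, Rpl39 and Rpl32 the summed FPKM was 2746, 2800 and 2485 in WT and 2332, 1381 and 1889 in Lsm14b-KO, lower in every mutant. As a share of all FPKM it was 0.221, 0.239 and 0.218% in WT and 0.226, 0.244 and 0.279% in Lsm14b-KO, where no mutant was below the WT range. Whether the summed family is lower thus depends on the scale, with or without the top 3.

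10 members were listed at 0 in at least 1 library, and 7 of them were above 0 in another. Rpl36 was at 5.51, 7.44 and 0 FPKM in WT and at 0, 0 and 2.28 FPKM in Lsm14b-KO. Rpl38 was at 0, 17.3 and 14.2 FPKM against 7.05, 0 and 2.198 FPKM. Both jumped between 0 and several FPKM within a group. Rpl36a was at 0, 0.968 and 2.13 FPKM against 0, 0.593 and 1.496 FPKM. Rpl13a was at 0.333, 0 and 0.956 FPKM against 0.247, 0.341 and 0.602 FPKM, and Rpl26 was at or under 0.00349 FPKM in every library. Zeros fell in both groups, with 5 or 6 members at 0 in each WT library and 6, 5 and 3 in Lsm14b-KO replicates 1 to 3. Such zeros can be failed estimates, and the fitted changes of these genes rest on them.

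Ribosomal protein genes have many processed pseudogenes, and reads can be split among near-identical copies. Aligning each coding sequence to the transcripts of GENCODE vM21 found at least 1 copy of 95% identity over 80% of its length for 46 of the 49 genes, 380 copies in all, of which 368 are annotated as pseudogenes. The median was 5 copies per gene and the highest number was 57. Rpl8, Rpl39l and Rpl3l had none. Some copies were listed far above their parent. Rpl37rt, a copy of Rpl37, was at 18860, 19250 and 16440 FPKM in WT and at 10410, 3380 and 6161 FPKM in Lsm14b-KO, while Rpl37 was at 25 FPKM or less. The ratio of the group means was nearly the same in both, 0.366 for the copy and 0.346 for Rpl37, and the copy fell by 1.59 on the log2 scale (adjusted p = 0.0290, SE 0.40). Rpl14-ps1 was at 1134, 1145 and 927 FPKM against 482, 257 and 395 FPKM, and fell by 1.54 (adjusted p = 0.0175, SE 0.33); the ratio of the group means was 0.354 for it and 0.329 for Rpl14. Gm15772, which shares its deposited locus with Rpl26, was at 267, 263 and 213 FPKM against 248, 65.8 and 97.3 FPKM, while Rpl26 was near 0. Rpl31-ps12 was at 69.3, 87.6 and 56.4 FPKM against 64.1, 24.7 and 67.9 FPKM, above Rpl31 in every library. The FPKM alone cannot tell reads of a gene from those of its copy. The values of Rpl37, Rpl14, Rpl26 and Rpl31 are therefore uncertain as levels of those genes. The same limit holds for every member with such a copy, the 9 genes that fell included. Of the 42 tested genes with a copy 9 fell, and of the 2 without 0 fell.

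**Figure D4:**
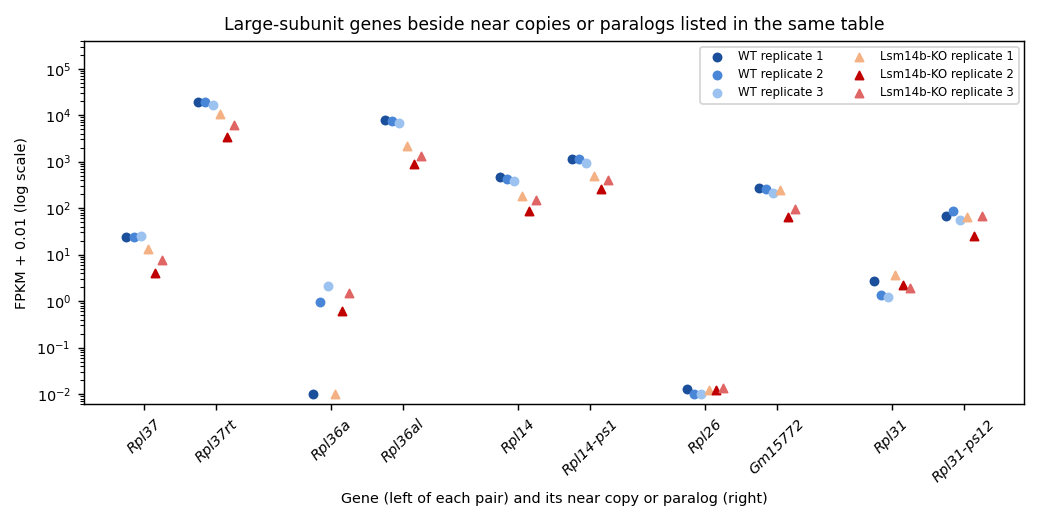
FPKM plus 0.01 on a log axis for 5 large-subunit genes and a near copy or paralog of each in the 6 libraries (circles, WT; triangles, Lsm14b-KO). Rpl37rt, Rpl36al, Rpl14-ps1, Gm15772 and Rpl31-ps12 stand above the gene to their left in every library.

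Genes of the large subunit that the symbol rule leaves out include Rpl36al, the paralog of Rpl36a. It was at 7776, 7402 and 6642 FPKM in WT, above Rpl41, and at 2142, 889 and 1339 FPKM in Lsm14b-KO. All mutants were below all WT libraries, with a ratio of means of 0.200 and a log2 fold change of -2.41 (adjusted p = 0.00486, SE 0.36), a larger fall than that of any gene within the rule. Rpl22l1, the paralog of Rpl22, was at 74.3, 68.7 and 60.8 FPKM against 82.6, 58.5 and 36.9 FPKM (adjusted p = 0.589), and its libraries overlapped.

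The proteins of the small subunit were taken by symbol in the same way. Of 32 tested genes 5 fell (15.6%, against 15.2% of all tested genes) and 1 rose. Without Lsm14b-KO replicate 1, 18 fell and 2 rose, while 28.7% of all tested genes were called lower and 18.3% higher. With all libraries the 32 genes gave a median log2 fold change of -0.71, which became -0.06 with equal FPKM sums and 0.11 with the length and GC correction. Their share of all FPKM was 0.354, 0.380 and 0.316% in WT and 0.361, 0.239 and 0.324% in Lsm14b-KO. Rps16 fell to a ratio of means of 0.191 (adjusted p = 0.00279). Rps23, which lies at the decoding centre, rose by 1.30 (adjusted p = 0.0439, SE 0.37). That call was lost with a pseudocount of 0.01, with no filter and with the replicate block. It was also lost without WT replicate 1, 2 or 3 and without Lsm14b-KO replicate 3 (adjusted p of 0.085 to 0.14). Of 43 factors that assemble or mature the 60S subunit, 41 were in the table and 21 were tested. Of these, 6 fell (28.6%, against 15.2% of all tested genes) and 0 rose (9 lower and 1 higher at an unadjusted p under 0.05). Without Lsm14b-KO replicate 1, 9 fell and 1 rose, against the same 28.7% and 18.3% of all tested genes. With all libraries the 21 factors had a median log2 fold change of -0.47 that stayed negative under every scaling tried. This median covers only factors that reached 1 FPKM in any library. With no filter 40 factors were fitted, and their median was -0.03, against 0.02 over all genes then tested. Nip7, which acts in rRNA processing, was at 10.8, 12.4 and 9.59 FPKM in WT and at 1.73, 0.542 and 0.706 FPKM in Lsm14b-KO, a log2 fold change of -2.62 (adjusted p = 0.00134, SE 0.26). Rpf2, which brings the 5S rRNA with Rpl5 and Rpl11 into the subunit, was at 70.2, 84.8 and 68.0 FPKM against 33.8, 6.39 and 15.9 FPKM (ratio of means 0.252, adjusted p = 0.0248). Eif6 and Sbds, which keep the subunits apart and release Eif6 from the 60S subunit, respectively, fell by 1.02 (adjusted p = 0.0280, SE 0.25) and 1.45 (adjusted p = 0.0295, SE 0.37), and Ebna1bp2 and Rpf1 were the other 2 that fell. With equal FPKM sums 2 of the 21 factors were called lower and 1 higher, while 7.6% of all tested genes were called lower and 13% higher. The 2 were Nip7 (adjusted p = 0.0026) and Rpf2 (adjusted p = 0.031). Eif6 (adjusted p = 0.284), Sbds (adjusted p = 0.0511), Ebna1bp2 and Rpf1 no longer passed. As deposited, no mutant library of the 6 factors that fell reached the WT range.

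Large-subunit transcripts are short, with a median of 834 nt over the tested genes against 2262 nt over all tested genes, and length went with the change in both. Across the 44 genes, Spearman's rho of transcript length with log2 fold change was 0.30, and across the 6085 tested genes with a length it was 0.362. Both are descriptions across genes that share the 6 libraries. A correction of each library for transcript length and GC content left 4 large-subunit genes lower and 5 higher. Of all tested genes 12.3% were then called lower and 10.1% higher. The 5 were Rpl10, Rpl10l, Rpl31, Rpl41 and Rplp1. The large-subunit median turned to 0.29, while the median of all tested genes moved by 0.18. Of the 22 genes with shorter transcripts 5 fell and of the 22 with longer transcripts 4 fell. The part of transcript length in the falls was not tested.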

How the data were processed

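The 6 libraries (3 WT, 3 Lsm14b-KO, 20 oocytes each) were prepared by Smart-seq2 amplification and read at 150 bp, per the labels, which name 2 library kits and no strandedness. The authors aligned reads to mm10 with TopHat2 2.0.13 and deposited FPKM per gene and library from Cufflinks 2.2.1; the annotation is not given in the sources used here. Other columns of the deposited table hold the authors' own group fold changes, p-values and q-values and were not used. FPKM are no counts, so no count model was fitted.

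Deposited FPKM were put on the log2(FPKM + 1) scale. Testing covered the 6398 of 24255 genes that reached 1 FPKM in any library and used limma 3.58.1 (R 4.3.3; eBayes with trend), with genotype as the only term, two-sided, with Benjamini-Hochberg adjustment over all tested genes. The fit was checked on simulated data. Depth was judged only relative to WT replicate 1, from the commonest ratio of very low values between the libraries. Members and lists were chosen with earlier results of these data known. Values are given for members past the threshold, members at 0 in some libraries, the 5 highest in WT, and genes of named structural groups. Rps16, Rps23, Nip7, Rpf2, Eif6, Sbds, Ebna1bp2, Rpf1 and the copies were named after their values were seen. Coordinates, transcript lengths and near-identical copies (blastn 2.17.0) came from GENCODE vM21 (GRCm38, the assembly of mm10), and start sequences from RefSeq GRCm38.p6. Values of 2 genes are not reported here by name, although one of them stays in the counts. Alternatives were pseudocounts of 0.1 and 0.01, other filters, scalings and variance models, zeros as missing, library weights, a replicate block and leaving out each library.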

Additional observations from a re-analysis of the deposited data

How the results depend on the processing

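The counts of large-subunit genes, small-subunit genes and 60S assembly factors past the threshold were 9, 6 and 6. They became 4, 3 and 3 with equal FPKM sums in all libraries, 25, 27 and 13 with library quality weights, and 2, 1 and 3 with no filter on low values. The share of all tested genes called was 21.6% as deposited, and 20.6, 68.5 and 5.03% in these alternatives. Quantile normalization left 4 large-subunit genes, and median scaling or a pseudocount of 0.01 left 3 small-subunit genes each. Of all tested genes 19.9, 21.9 and 17.7% were then called. With 1 library left out the counts ranged from 0 to 23, 1 to 20 and 2 to 10, and the share of all tested genes called from 5.06 to 47.0%. The large-subunit median of -0.38 turned to 0.11 with equal FPKM sums and to 0.29 with the length and GC correction, and the log2 ratio of summed FPKM from -0.24 to 0.43 as a share of all FPKM. Lsm14b kept its direction and side of the threshold under the 17 alternatives that gave it a value; zeros as missing gave none.

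None of the 9 genes that fell changed sign under any alternative, but Rpl18, Rpl24, Rpl29, Rpl34, Rpl37 and Rpl6 did not pass with equal FPKM sums, and of these only Rpl37 passed with the length and GC correction. With equal FPKM sums the log2 fold changes of Rpl11, Rpl39l, Rpl35, Rpl36a, Rpl39, Rpl32, Rpl10a and Rpl41 turned to 0.0074, 0.091, 0.11, 0.11, 0.31, 0.40, 0.45 and 0.59. With the length and GC correction those of Rpl39l, Rpl11, Rpl39, Rpl10a, Rpl32, Rpl36a and Rpl41 turned to 0.22, 0.26, 0.45, 0.46, 0.58, 0.74 and 0.75. With quantile normalization those of Rpl10a, Rpl35, Rpl39l, Rpl39, Rpl32 and Rpl41 turned to 0.015, 0.15, 0.15, 0.46, 0.50 and 0.61, and with library quality weights those of Rpl11, Rpl41 and Rpl36a to 0.12, 0.14 and 0.48. With 1 library left out, the fold change ranged from -0.27 to 0.34 for Rpl23a (-0.04, -0.16 and -0.27 where it turned), from -0.65 to 0.18 for Rpl36a (also 0.12), from -0.49 to 0.0097 for Rpl32, from -0.23 to 0.049 for Rpl41 and from -0.37 to 0.11 for Rpl10a. The cause was not tested.

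Replicate numbers are shared by the groups, and the labels do not say whether they pair the libraries. The correlations of same-numbered deviations were 0.19, -0.13 and 0.02. With 3 libraries per group these cannot decide whether libraries were paired. With the replicate block, 7 large-subunit genes passed in place of 9, and 1244 of all tested genes in place of 1383. Rpl29 (adjusted p = 0.0808) and Rpl6 (adjusted p = 0.0614) no longer passed in limma, and no other large-subunit call described in the text changed. The block also ended the call of Rps23 (adjusted p = 0.0567) and that of Eif6 (adjusted p = 0.0573). Depth is known only relative to 1 library, and FPKM near 1 rest on few reads.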
